A study of Mus musculus with 5 samples.

Results

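A set of 9 genes that leukocytes and endothelium use to adhere to each other was followed through single-cell RNA sequencing of the mouse kidney: Selp, Sele, Selplg, Itgam, Itgal, Itga4, Itgb2, Icam1 and Icam2. The genes were taken by symbol, and all 9 were found among the 32285 genes of the matrix. The kidneys came from male C57BL/6J mice aged 6 to 8 weeks that had unilateral ischemia-reperfusion (UIR), in which the left renal pedicle was clamped for 35 minutes of warm ischemia and the right kidney was left intact. Samples were taken at day 1, day 3, day 14 and day 28 and from sham-operated mice. The methods tie a kidney sample to 3 mice but also name more matrices than the 5 libraries held here, so the number of animals behind a library is not settled. One 3′ count matrix held 5 libraries, told apart by the number at the end of each barcode. The labels used here do not tie a library to a condition, so the libraries are named 1 to 5, no value is assigned to sham or to a day, and they are not treated as replicates in a test. No p-value is given.

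Leukocyte entry into tissue follows a cascade. P-selectin (Selp) and E-selectin (Sele) on activated endothelium catch flowing leukocytes through PSGL-1, the protein of Selplg. Integrins on the leukocyte then bind immunoglobulin-type ligands on the vessel wall and arrest the cell. The integrin alpha chains of Itgam (CD11b) and Itgal (CD11a) each pair with the beta-2 chain of Itgb2 to form Mac-1 and LFA-1, which bind ICAM-1 and ICAM-2, whereas the alpha-4 chain of Itga4 pairs with beta-1 or beta-7 chains and binds VCAM-1 or MAdCAM-1.

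Of 70376 called cells, 57691 were kept, between 8233 and 19000 per library, with a median of 4609 unique molecular identifiers (UMIs, counted molecules) per cell. Classes were set by gates on marker genes, none of which was 1 of the 9 genes. A cell entered the class with the highest share of its markers detected if at least 3 had a UMI, and its proximal tubule transcripts were limited. The gates gave 1446 neutrophil-like, 499 classical monocyte-like, 52 non-classical monocyte-like, 1078 macrophage-like, 185 dendritic-like, 1181 T-like, 181 NK-like, 362 B-like and 449 endothelial-like cells, beside 81 fibroblast/pericyte-like, 930 distal nephron-like and 38126 proximal tubule-like cells. The deposited cell type label, goblet cell, went against the data, since 0 of 57691 cells held 3 or more of the goblet markers. Library 2 held 571 neutrophil-like cells and library 3 held 611, against 63, 199 and 2 in libraries 1, 4 and 5. Endothelial-like cells numbered 110, 212 and 93 in libraries 1 to 3, and 16 and 18 in libraries 4 and 5. Among the kept cells, 709 shared a barcode sequence with a cell of another library. Among gated leukocytes and endothelium, 4 cells shared one with a gated cell of another library.

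On GRCm38, Selp (1:164115264-164150026, plus strand) and Sele (1:164048234-164057677, plus strand) lie close together, and Itgam (7:128062640-128118491, plus strand) and Itgal (7:127296260-127335138, plus strand) lie on the same chromosome. The others are Selplg (5:113818536-113832644, minus strand), Itga4 (2:79255426-79333123, plus strand), Itgb2 (10:77530252-77565708, plus strand), Icam1 (9:21015985-21028817, plus strand) and Icam2 (11:106377656-106388075, minus strand). Itgam overlaps 1 annotated gene on its own strand, Gm49368, so a read in the overlap may belong to either. RefSeq promoters, 250 bases before the start site and 50 from it (GRCm38.p6), were matched for 5 of the 9 genes, Selp, Sele, Itgam, Itga4 and Icam1. Those of Sele, Itgam and Icam1 are shown because the genes were highest in different compartments: Sele in endothelium, Itgam in myeloid cells, and Icam1 across leukocytes, stroma and endothelium. Capitals mark letters found by search on both strands.

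Sele, chr1:164047984-164048283, plus strand: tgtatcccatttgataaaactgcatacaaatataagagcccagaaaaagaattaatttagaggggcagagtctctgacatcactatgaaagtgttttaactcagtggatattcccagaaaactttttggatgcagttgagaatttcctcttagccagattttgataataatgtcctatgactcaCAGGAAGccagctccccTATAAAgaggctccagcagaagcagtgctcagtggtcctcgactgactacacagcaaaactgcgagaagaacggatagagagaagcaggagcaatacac

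Itgam, chr7:128062390-128062689, plus strand: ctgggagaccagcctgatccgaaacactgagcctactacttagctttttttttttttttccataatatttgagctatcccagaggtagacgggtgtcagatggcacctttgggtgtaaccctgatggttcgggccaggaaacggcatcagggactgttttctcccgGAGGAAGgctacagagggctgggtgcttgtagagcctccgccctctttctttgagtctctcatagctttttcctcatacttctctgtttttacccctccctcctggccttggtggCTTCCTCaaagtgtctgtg

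Icam1, chr9:21015690-21015989, plus strand: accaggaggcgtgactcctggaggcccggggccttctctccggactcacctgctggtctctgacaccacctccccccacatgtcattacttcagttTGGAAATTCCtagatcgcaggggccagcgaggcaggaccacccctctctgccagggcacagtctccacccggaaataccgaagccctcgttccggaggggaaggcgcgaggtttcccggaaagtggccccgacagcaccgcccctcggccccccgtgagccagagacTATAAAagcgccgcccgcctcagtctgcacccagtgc

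In the Sele promoter the capitals are an ETS-type motif, CAGGAAG, which 13.3% of 32817 mouse promoters hold, and a TATA motif, TATAAA, which 13.6% hold. In the Itgam promoter they are 2 matches, 1 on each strand, to a PU.1-type motif, GAGGAAG, which 13.6% hold. PU.1 is an ETS factor of myeloid cells. In the Icam1 promoter the first run is the Icam1-type kB motif, a site for NF-kB known from this gene and searched for that reason, which 0.0823% of promoters hold, and the second is TATAAA. Another kB pattern, held by 1.63%, was not found in any of the 5 promoters. It also misses the known kB site of Icam1, so its absence does not show that a promoter lacks a kB site. Other forms of the kB site were not searched for, in Sele or in the other promoters. A match describes letters and says nothing of binding in these cells.

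The clearest division was between leukocytes, meaning the 8 leukocyte classes together, and endothelium. Levels are given as CPM, the UMIs of a gene in all cells of a class as a share of 1e6 UMIs, with exact Poisson 95% intervals that cover counting error only. Orders of classes refer to these pooled levels, to which libraries contribute unequal numbers of cells, and an order can turn within a library. A gene was called higher or lower when the pooled ratio was at least 2-fold and so was the ratio in each library with at least 20 cells of both groups, here libraries 1 to 3. Of the 9 genes, 8 had the 50 UMIs needed. In leukocytes 5 of them (Itgam, Itgb2, Selplg, Itgal and Itga4) were called higher, where 9.44% of 11647 genes were called. Icam2 was the 1 gene called lower, where 13.1% of genes were called. Icam1 and Selp were called in neither direction. The median log2 ratio over the 8 genes was 4.02, beside -0.33 over all genes tested.

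**Figure D1:**
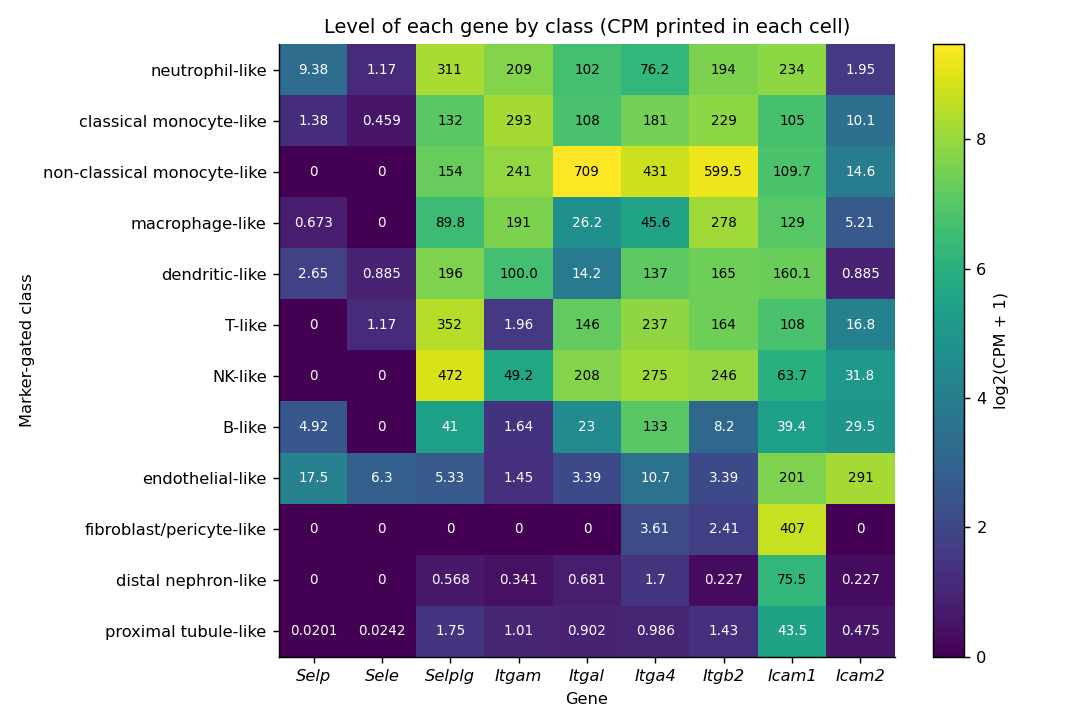
Level of each of the 9 genes (columns) in each of 12 marker-gated classes (rows), as CPM over all libraries, printed in each cell and coloured by log2(CPM + 1). Selplg, Itgal and Itga4 are read in all the leukocyte rows, Itgam is low in the T-like and B-like rows and Itgb2 in the B-like row, Icam2 stands out in the endothelial-like row at 291 CPM, and Icam1 is the only column with more than 40 CPM in the distal nephron-like and proximal tubule-like rows.

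Among the selectins, Selp was sparse everywhere. Its 88 UMIs in kept cells included 36 in endothelial-like cells (17.5 CPM, 12.2 to 24.2) and 24 in neutrophil-like cells (9.38 CPM, 6.01 to 14). By library, endothelial Selp was 55.9, 0 and 0 CPM in libraries 1, 2 and 3, and a count of 0 allowed up to 4.58 and 5.29 CPM in libraries 2 and 3. What a count of 0 allowed is given throughout as a floor of 3 UMIs. This floor lies below the upper Poisson limits, which were 5.63 and 6.51 CPM here. The 36 UMIs came from 5 cells, and 1 cell of library 1 held 28 of them. This cell had 15442 UMIs in all and 11 of the 11 endothelial gate markers, and it also held 6 UMIs of Sele, 95 of Icam1, 5 of Icam2 and 32 of Vcam1, the ligand of alpha-4 integrins on activated endothelium. It held 0 UMIs of Itga2b, a platelet integrin chain. Without it, endothelial Selp was 3.91 CPM (1.69 to 7.7), lower than in neutrophil-like cells, with overlapping intervals. The pooled log2 ratio of leukocytes to endothelium was -2.87 with the cell, -0.71 without it and 1.96 without library 1, where 1 endothelial UMI was left.

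The Selp UMIs of neutrophil-like cells were spread thinly. They came from 23 of 1446 cells (1.59%, exact binomial interval 1.01 to 2.38), with at most 2 UMIs in a cell. By library, neutrophil Selp was 0, 12.2, 8.34 and 8.39 CPM in libraries 1 to 4, while the free RNA of barcodes with at most 100 UMIs held 0.458, 0.403, 2.8 and 9.34 CPM. The level was above free RNA with separate intervals in library 2. The intervals overlapped in library 3 (4.31 to 14.6 against 1.45 to 4.89 CPM) and in library 4, where the level rested on 2 UMIs and lay below free RNA. The 23 cells held 0 UMIs of 6 platelet markers and 0 of the endothelial markers. The other 1423 neutrophil-like cells held 1.19 and 14.7 CPM of these markers, so counts of 0 in 23 cells say little. Proximal tubule-like cells held 5 Selp UMIs in 38126 cells (0.0201 CPM). Their median depth was 5732 UMIs, against 1296 in neutrophil-like cells. The part of free RNA in the neutrophil values was not tested. The T-like and NK-like classes had 0 UMIs, which allowed up to 1.17 and 8.68 CPM.

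Sele was scarcer still, with 37 UMIs in kept cells. It was highest in endothelial-like cells, at 6.3 CPM (3.36 to 10.8), from 13 UMIs. Neutrophil-like and T-like cells held 3 UMIs each, and classical monocyte-like and dendritic-like cells 1 each. The other leukocyte classes held 0, which allowed up to 0.504 CPM in macrophage-like, 4.92 in B-like, 8.68 in NK-like and 21.9 in non-classical monocyte-like cells, so the last 3 could not be set below the endothelial interval at this depth. Endothelial Sele was 14.4, 6.1 and 0 CPM in libraries 1 to 3, from 9, 4 and 0 UMIs. The 13 endothelial UMIs lay in 6 cells, 6 of them in the cell that led Selp, and without that cell the level was 3.42 CPM (1.37 to 7.05). Free RNA held between 0 and 2.77 CPM. Sele was under 50 UMIs in the 2 groups together and was not called.

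Selplg, which encodes the main selectin ligand of leukocytes, was read in every leukocyte class. Leukocytes held 267, 229.9 and 127 CPM in libraries 1 to 3, and endothelium held 4.79, 10.7 and 1.76 CPM, so the groups did not overlap. Free RNA held 8.4, 15.5 and 7.22 CPM of Selplg in these libraries, above the endothelial values. The part of free RNA in the endothelial values was not tested. The log2 ratio was 5.16 (4.32 to 6.16). The order of levels ran from NK-like (472 CPM) through T-like (352 CPM) and neutrophil-like (311 CPM) to dendritic-like (196 CPM), non-classical monocyte-like (154 CPM), classical monocyte-like (132 CPM), macrophage-like (89.8 CPM) and B-like cells (41 CPM). The first 3 classes overlapped in their ranges over libraries, from 226 to 996, from 154 to 502 and from 209.9 to 741 CPM. Neutrophil-like cells stood above T-like cells in each of libraries 1 to 4, at 741 against 502, 448 against 348, 209.9 against 154 and 339.7 against 191 CPM, so the pooled order of these classes was opposite to that within each library with at least 20 cells of both. When each cell was thinned to 1000 UMIs and shallower cells left out, a Selplg UMI was found in 30.7% of 1106 neutrophil-like and 28.6% of 1094 T-like cells, against 0.276% of 362 endothelial-like and 0.19% of 36299 proximal tubule-like cells. The shares before thinning were 37.9%, 46.1%, 1.78% and 0.852%.

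Itgam, the alpha chain of Mac-1, was a myeloid gene in these cells. Leukocytes held 57.5, 157 and 212 CPM in libraries 1 to 3 and endothelium held 0, 3.05 and 1.76 CPM, from 3 UMIs in all, giving a log2 ratio of 6.78 (5.24 to 9.06). Free RNA held 1.53, 7.85 and 5.59 CPM of Itgam in these libraries, above the endothelial values. Classical monocyte-like cells had 293 CPM (271 to 317), non-classical monocyte-like 241 (166 to 339), neutrophil-like 209 (191 to 227) and macrophage-like 191 (180.4 to 203). The classical monocyte-like value rested on library 3, which held 374 of the 499 cells at 332 CPM. In libraries 2 and 4 these cells were at 171 and 176 CPM, below neutrophil-like (269 and 264 CPM) and macrophage-like cells (202 and 232 CPM). T-like cells had 1.96 CPM and B-like cells 1.64 CPM, near the 1.01 CPM of proximal tubule-like cells, while NK-like cells had 49.2 CPM (28.7 to 78.8). In the comparison of T and NK cells with myeloid cells, Itgam was the 1 gene of 7 called lower (log2 ratio -4.76, -5.44 to -4.16), where 5.65% of 10787 genes were called. None was called higher, where 3.7% were called. Icam2, Itga4, Itgal and Selplg had pooled log2 ratios of 1.87, 1.43, 1.26 and 1.23 on the side of T and NK cells, but Icam2 was at 0.02 and Itga4 at 0.61 in library 5, Itgal at 0.98 in library 3, and Selplg at 0.93 and 0.44 in libraries 2 and 3. The library 5 ratios rested on few UMIs. T and NK cells held 1 of Icam2 and 9 of Itga4 there, and myeloid cells 2 and 12.

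Itgal, the alpha chain of LFA-1, was highest in non-classical monocyte-like cells at 709 CPM (575 to 865), followed by NK-like (208 CPM, 163 to 262), T-like (146 CPM), classical monocyte-like (108 CPM) and neutrophil-like cells (102 CPM). In library 2 classical monocyte-like cells, at 235 CPM, stood above NK-like (182 CPM) and T-like cells (165 CPM). Non-classical monocytes patrol the vessel wall. Both libraries with at least 20 such cells stood high, at 987 CPM in library 2 and 478 CPM in library 3, from 21 and 25 cells. Of the 52 non-classical monocyte-like cells, 29 held just the 3 markers the gate asked for, and Ptprc, the pan-leukocyte gene for CD45, had a UMI in 98.1% of the 52. Dendritic-like cells (14.2 CPM) and B-like cells (23 CPM) were at the low end of the leukocytes. Itgal was also the 1 gene of 7 called higher in classical monocyte-like than in macrophage-like cells, where 1.5% of 8788 genes were called, and 0 were called lower, where 1.92% were called. Classical monocyte-like cells held 235, 91.4 and 117 CPM in libraries 2 to 4 and macrophage-like cells 40.3, 18.3 and 19.8 CPM, which did not overlap. Itga4 had a similar pooled log2 ratio of 1.99 (181 against 45.6 CPM), but its ratio in library 4, 0.99, was just under the limit.

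Itga4, the alpha chain of VLA-4, had the same class at its head, with 431 CPM (328 to 556) in non-classical monocyte-like cells, and NK-like (275 CPM) and T-like cells (237 CPM) next. Neighbouring classes in this order overlapped in their counting intervals and in their ranges over libraries. B-like cells, low in the other integrin chains, held 133 CPM (105 to 165). Neutrophil-like cells (76.2 CPM) and macrophage-like cells (45.6 CPM) were lowest among leukocytes. Leukocytes held 110.3, 129.8 and 117 CPM in libraries 1 to 3, and endothelium 7.99, 21.4 and 3.53 CPM. Free RNA held 2.9, 7.45 and 3.03 CPM of Itga4 in these libraries, below the endothelial values.

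Itgb2, the shared beta-2 chain, was read in every leukocyte class except B-like cells, where it was scarce, at 8.2 CPM (2.66 to 19.1) from 5 UMIs. That level lay within the free RNA range of 0.346 to 23.6 CPM, so Itgb2 in B-like cells was not told apart from free RNA. Non-classical monocyte-like cells held 599.5 CPM (477 to 744), macrophage-like 278, NK-like 246, classical monocyte-like 229, neutrophil-like 194, dendritic-like 165 and T-like cells 164 CPM. From macrophage-like to neutrophil-like cells the ranges over libraries overlapped. In leukocytes Itgb2 was 205, 302 and 173 CPM in libraries 1 to 3, against 3.2, 7.63 and 0 CPM in endothelium. Free RNA held 5.8, 23.6 and 9.09 CPM of Itgb2 in these libraries, above the endothelial values. Cells thinned to 1000 UMIs were also read for both chains at once. Of neutrophil-like cells with an Itgam UMI, 27.8% had an Itgb2 UMI (22.4 to 33.7), against 19.2% of those without (16.6 to 22.1). In classical monocyte-like cells the shares were 30.4% (22.8 to 38.9) and 18% (14.2 to 22.4), and in macrophage-like cells 23.3% (16.7 to 31) and 16.2% (13.7 to 18.9), where the intervals overlapped. For Itgal the shares with and without its UMI were 28.2% and 20.3% in neutrophil-like, 26.4% and 20.8% in classical monocyte-like, 45.8% and 33.3% in non-classical monocyte-like, 32.3% and 16.8% in macrophage-like, 19.1% and 14.5% in T-like and 26.7% and 27.1% in NK-like cells. The intervals overlapped in all 6 classes. Cells of a class share libraries and differ in RNA content, so these shares are descriptions.

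**Figure D2:**
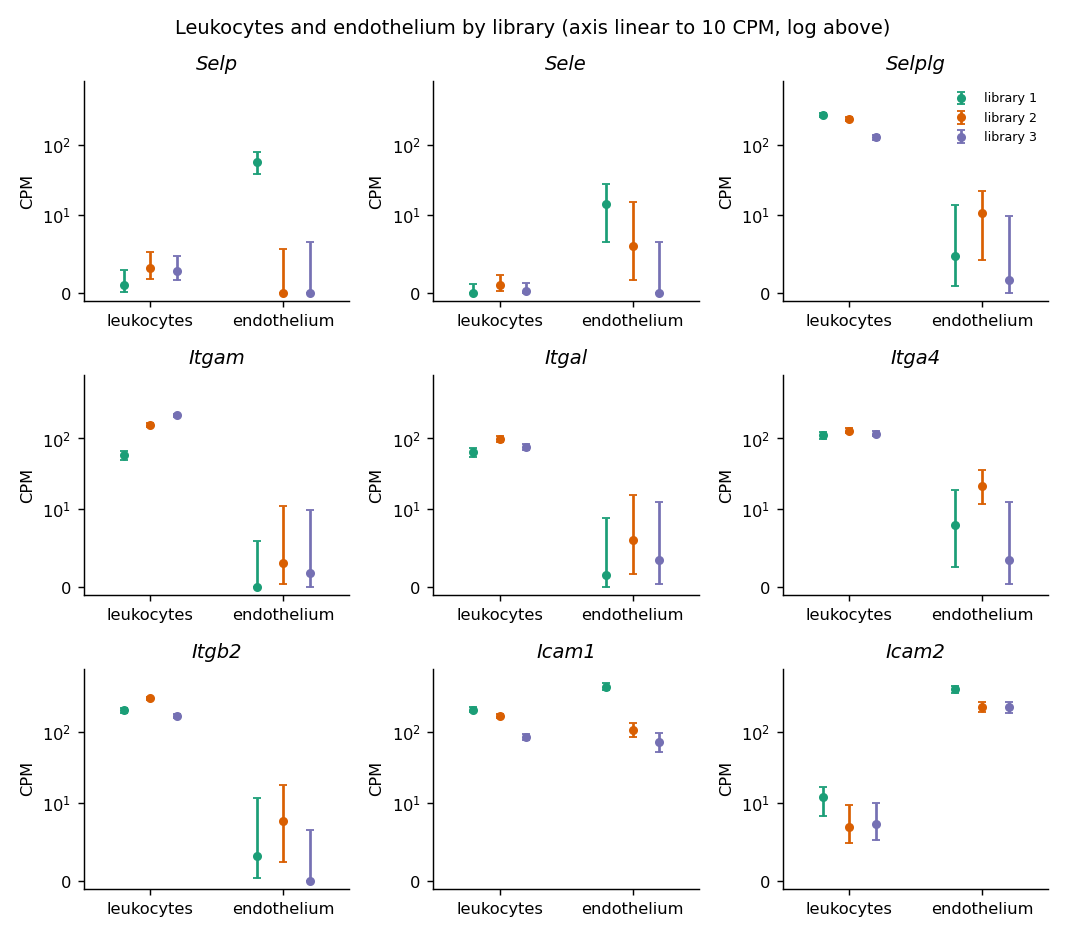
CPM of each gene in leukocytes and endothelium in libraries 1 to 3, the libraries with at least 20 endothelial-like cells (axis linear to 10 CPM and logarithmic above). Points are single libraries and bars exact Poisson 95% intervals, and the groups separate in every library for Selplg, Itgam, Itgal, Itga4 and Itgb2 on the leukocyte side and for Icam2 on the endothelial side, while Selp in endothelium is seen in library 1 alone.

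Icam2, a ligand of LFA-1 that resting endothelium carries, was the endothelial gene of the set. Endothelial-like cells held 408, 229 and 226 CPM in libraries 1 to 3, and leukocytes 11.9, 6.96 and 7.28 CPM, for a pooled 291 against 8.6 CPM and a log2 ratio of -5.08 (-5.36 to -4.81). The highest leukocyte library lay far below the lowest endothelial one. NK-like (31.8 CPM), B-like (29.5 CPM) and T-like cells (16.8 CPM) led the leukocytes, and neutrophil-like cells had 1.95 CPM from 5 UMIs, within the free RNA range of 1.73 to 5.65 CPM. After thinning, 23.8% of endothelial-like cells had an Icam2 UMI (19.5 to 28.5), against 0.0606% of proximal tubule-like cells, and before thinning 48.6% and 0.231%. Without the cell that led Selp the endothelial level was also 291 CPM.

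Icam1, the ligand of LFA-1 and Mac-1 that inflammatory signals are known to raise, was read at 39.4 CPM or more in each of the 12 classes. Its highest level was in fibroblast/pericyte-like cells, 407 CPM (365 to 453), which were 520.1 CPM in library 1, with 41 of the 81 cells, and 275 CPM (213 to 348) in library 2. In library 2 neutrophil-like cells were higher, at 431 CPM (387 to 479). Neutrophil-like cells followed with 234 CPM (216 to 254), and endothelial-like cells with 201 CPM (182 to 222), whose intervals overlapped. That overlap rested on the 1 cell that led Selp, without which endothelium held 156 CPM (139.7 to 174), below neutrophil-like cells and next to dendritic-like cells in the pooled values. The order with neutrophil-like cells was opposite in library 1, at 302 CPM (259.5 to 348) in endothelium without that cell against 168 CPM (80.7 to 309.6). Dendritic-like cells held 160.1, macrophage-like 129, T-like 108, classical monocyte-like 105 and B-like cells 39.4 CPM. Distal nephron-like cells held 75.5 CPM (69.9 to 81.5). Proximal tubule-like cells held 43.5 CPM (42.7 to 44.4), and by their number 10810 of the 18811 Icam1 UMIs in kept cells. Free RNA held 33.3, 53.2, 52.2, 70.6 and 21.1 CPM of Icam1 in libraries 1 to 5, and proximal tubule-like cells 41.4, 67.6, 54.8, 34.5 and 15.4 CPM, so tubular levels were above free RNA in libraries 1 and 2 and below it in library 4. In libraries 3 and 5 the intervals overlapped, at 52.9 to 56.8 against 45.6 to 59.5 CPM and 14.3 to 16.5 against 16.1 to 27.1 CPM. B-like cells held 39, 67.6, 34.1 and 32.4 CPM in libraries 1 to 4, with intervals that overlapped free RNA. Distal nephron-like cells were above free RNA in libraries 1 and 2 (234 and 102 CPM). They were below it in libraries 3 and 5 (34.5 and 5.6 CPM). The part of free RNA in these values was not tested.

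Endothelial Icam1 differed between libraries. It was 446 CPM (395 to 501) in library 1, 108 (84.6 to 137) in library 2 and 72.3 (51.9 to 98.1) in library 3, a 6.16-fold span. The cell that led Selp held 95 of the 279 UMIs of library 1, and without it library 1 stood at 302 CPM (259.5 to 348), above libraries 2 and 3 with separate intervals. Libraries 4 and 5, with fewer than 20 endothelial-like cells, were outside the comparison and held 49.6 CPM (16.1 to 116) and 166 CPM (100.2 to 259.9), the latter overlapping library 1 without that cell. Of the 2 genes with 50 UMIs in endothelium, Icam1 spanned 2-fold over libraries with separate intervals, where 27.3% of 5853 genes did, and Icam2 did not (408 to 226 CPM, 1.8-fold, in libraries 1 to 3). In libraries 4 and 5 Icam2 was 139 CPM (75.9 to 233) and 473 CPM (355 to 617), from 16 and 18 cells, so the span would be wider with them. Leukocyte Icam1 was 209, 169 and 86.5 CPM in libraries 1 to 3, so endothelium was higher in library 1 and lower in library 2. In library 3 endothelium was lower with overlapping intervals, at 51.9 to 98.1 against 78.9 to 94.6 CPM. The pooled log2 ratio of -0.56 became 0.34 without library 1. Library 1 was also the highest for Icam1 in macrophage-like cells (232 CPM against 37.4 to 127), T-like cells (185 CPM against 0 to 76.5) and distal nephron-like cells (234 CPM against 5.6 to 102), but not in neutrophil-like or proximal tubule-like cells. The lowest macrophage-like value, in library 5, rested on 3 UMIs. The lowest T-like value, also in library 5, was a count of 0, which allowed up to 60.4 CPM.

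**Figure D3:**
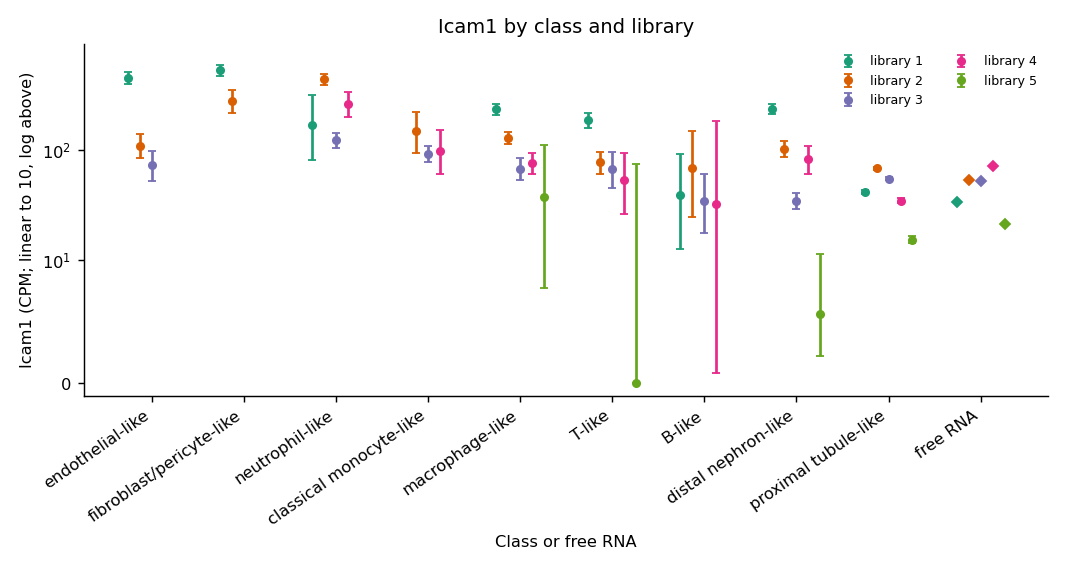
Icam1 in CPM by class and library, for classes and libraries with at least 20 cells, and in free RNA (diamonds, barcodes with at most 100 UMIs); bars are exact Poisson 95% intervals and the axis is linear to 10 CPM and logarithmic above. Library 1 is highest in endothelial-like, fibroblast/pericyte-like, macrophage-like, T-like and distal nephron-like cells, library 2 is highest in neutrophil-like and proximal tubule-like cells, and library 4 is highest in free RNA.

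The endothelial gate held transcripts of podocytes, the epithelial cells that wrap glomerular capillaries. A UMI of Nphs1, which encodes the slit diaphragm protein nephrin, was found in 58 of 449 endothelial-like cells, 56 of them among the 212 of library 2, where free RNA held 28.8 CPM of Nphs1 against 0.346 to 1.86 CPM in the other libraries. Leaving those cells out gave 19.1 CPM for Selp, 207 CPM for Icam1 and 306 CPM for Icam2, against 17.5, 201 and 291 CPM. A further gate split the endothelium into 153 glomerular-like, 70 arterial-like and 226 other cells, with an Nphs1 UMI in 44, 1 and 13. Icam2 was 159.7 CPM (123 to 204) in glomerular-like, 296 (239.8 to 362) in arterial-like and 330.3 (300.2 to 363) in other endothelium. Glomerular-like cells were below other endothelium with separate intervals in library 1, at 243 CPM (159 to 356) against 437 (379 to 502), and in library 2, at 153 (106 to 213) against 272 (223 to 329.6). Library 3 held 7 glomerular-like cells, and the intervals overlapped. Icam1 was 376, 49.9 and 184 CPM, but the glomerular-like value was 148 CPM (112 to 192) without the cell that held 95 Icam1 UMIs, below that of other endothelium with overlapping intervals. In library 2 the order was opposite, at 126 against 101 CPM. It was also opposite in library 3, at 314 CPM (143 to 596) against 72.5 CPM (46.4 to 108), with separate intervals. The 314 CPM came from 9 UMIs in 7 cells. Although gated as glomerular-like, the cell with 95 Icam1 UMIs also held 17 UMIs of Plvap and 5 of Nr2f2, genes known from peritubular and venous endothelium. Arterial-like cells had 0 UMIs of Selp and Sele, which allowed up to 9.36 CPM.

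Neutrophil-like cells were set against mononuclear phagocytes, meaning the monocyte-like and macrophage-like classes together, in libraries 1 to 4. Selplg was the 1 gene of 7 called higher in neutrophils, where 3.34% of 9770 genes were called. It was 741, 448, 209.9 and 339.7 CPM in neutrophils and 126, 105, 89.5 and 95.1 CPM in mononuclear phagocytes, which did not overlap (log2 ratio 1.61, 1.47 to 1.75). The ratio was 0.75, under the call, with no limit on tubule transcripts. None of the 7 was called lower, where 5.95% were called. Icam1 had a log2 ratio of 0.94, with 168, 431, 121 and 256 CPM in neutrophils and 235, 127, 83.4 and 79.1 CPM in mononuclear phagocytes, so the order was opposite in library 1. Itgam (209 against 219 CPM), Itga4 (76.2 against 87.7 CPM) and Itgb2 (194 against 271 CPM) had pooled log2 ratios of -0.07, -0.20 and -0.48, and each turned positive without library 3.

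Over libraries, 4 of the 6 genes with enough UMIs in neutrophils spanned 2-fold or more, where 76.3% of 5231 genes did, and the same 4 had separate intervals, where 32.7% did. Library 3 was lowest for all 4, at 209.9 CPM of Selplg, 53.5 of Itga4, 111 of Itgb2 and 121 of Icam1, against highest values of 741, 126, 313 and 431 CPM. In mononuclear phagocytes 6 of 7 spanned 2-fold, where 69.2% of 8841 genes did, and 5 had separate intervals, where 25.9% did. There Itgam ran from 55.9 CPM in library 5 to 304 in library 3, Itgb2 from 121 in library 5 to 396 in library 2, and Icam1 from 46.6 in library 5 to 235 in library 1. These library 5 values rested on 6 UMIs of Itgam, 13 of Itgb2 and 5 of Icam1 in 59 cells. Library 3, low in neutrophils, was the highest for Itgam in mononuclear phagocytes. In macrophage-like cells alone it was also the highest, at 266 CPM against 24.9 to 232, with 24.9 CPM from 2 UMIs. The class mix of the group differed between libraries. Library 1 held 297 macrophage-like and 19 classical monocyte-like cells, and library 3 held 222 and 374. Pooled Itgal was 26.2 and 108 CPM in these classes, and Itga4 45.6 and 181 CPM. Within macrophage-like cells, Itga4 ran from 27.7 to 71.2 CPM and Itgal from 13.8 to 49.8 CPM over libraries. The part of class mix in the spans was not tested.

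**Figure D4:**
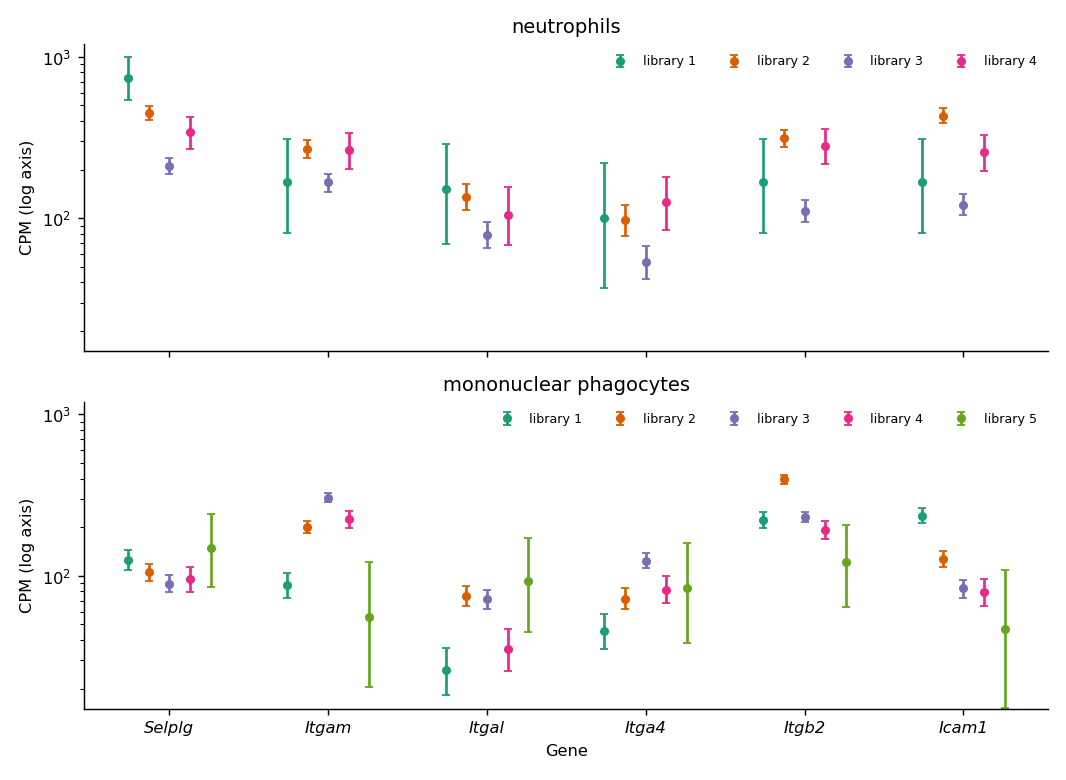
CPM (log axis) of 6 genes in neutrophils (top, libraries 1 to 4) and mononuclear phagocytes (bottom, libraries 1 to 5), with exact Poisson 95% intervals. In neutrophils library 3 is the lowest point for each gene, and in mononuclear phagocytes Itgam is highest in library 3, Itgb2 in library 2 and Icam1 in library 1.

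Neutrophil-like cells with a UMI of Siglecf, a lectin seen on neutrophils in injured and remodelling tissue, numbered 132, of which 72 were in library 2 and 39 in library 4. They held 476 CPM of Icam1 (393 to 572) against 209 CPM (191 to 228) in the 1314 without. Within library 2 the values were 665 CPM (519 to 841) and 397 CPM (352 to 446), and within library 4 they were 578 CPM (393 to 820.3) and 162 CPM (109.5 to 232). Itgal went the other way, at 45.9 CPM (22.9 to 82.2) against 108 CPM (94.8 to 122), and at 66.5 against 147 CPM within library 2, with overlapping intervals. Selplg was also lower in cells with a Siglecf UMI, at 229.7 CPM (173 to 299) against 319 CPM (297 to 343), with overlapping intervals, at 314 against 468 CPM in library 2 and at 224 against 373 CPM in library 4. Median depths were 1337 and 1284 UMIs. At this depth a cell without a Siglecf UMI is not shown to lack the transcript.

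The other genes of the cascade, from a fixed list, were read in the comparison of leukocytes with endothelium, where 9.44% of all genes were called higher and 13.1% lower. Among the selectin ligands, Cd44, which is also a hyaluronan receptor, was called higher in leukocytes, at 246 against 13.1 CPM. Cd34 and Podxl, sialomucins of vessels, were called lower, at 1.81 against 369 CPM and 5.3 against 866 CPM, and Podxl is also a podocyte gene. Of 10 other integrin chains, 3 were called higher (Itgae, Itgax and Itgb7) and 2 lower (Itga1 and Itga9), the latter a share near that of all genes. Itgb7, a beta partner of Itga4, was 62 against 1.94 CPM, whereas Itgb1, the other partner, was 201 against 397 CPM and not called. Of 11 adhesion ligands and junction molecules, 2 were called higher and 7 lower, led by Cdh5, Jam2, Esam and Pecam1, of which Cdh5 and Esam had served as gate markers. Without these, 2 of 9 were called higher and 5 lower. Vcam1, the ligand of Itga4 integrins, was 43.4 CPM in leukocytes and 95 CPM in endothelium, with log2 ratios of -0.89, 0.98 and -3.61 in libraries 1 to 3, so the order was opposite in library 2. Of 8 genes of integrin activation, 4 were called higher (Skap1, Fyb, Apbb1ip and Fermt3, the kindlin of blood cells) and 0 lower. Of 3 tested genes that build selectin ligand sugars, 0 were called, and Fut7 was below the UMI minimum with 21 UMIs in leukocytes and 0 in endothelium.

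The genes whose pattern over the 12 classes was most like each of the 9 were sought among 13219 genes by Pearson correlation of log2(CPM + 1). For Itgb2 they were Myo1f (r = 0.986), Pik3r5 and Lcp2, for Itgam Fcgr3 (r = 0.984), Gm34084 and Tyrobp, for Itga4 Akna (r = 0.984), Ankrd44 and Ikzf1, for Itgal Arhgap4 (r = 0.946), Bin2 and Ptprc, and for Selplg Rac2 (r = 0.967), Cd52 and Dennd1c. Icam2 was most like Pecam1 (r = 0.953), Rapgef1 and Cdk19. Rasip1 (r = 0.851) and Gm42829 were among the 3 genes most like Selp, and Sele was most like She (r = 0.906), B3galt2 and Gpihbp1, from 78 and 27 UMIs over the classes. Icam1 was most like Fam114a1 (r = 0.876), Poldip3 and Cpne2, a weaker best match than for the other genes except Selp. Among the genes themselves, Selplg, Itgal, Itga4 and Itgb2 correlated at 0.88 to 0.93 with each other, and Icam1 at -0.14 to 0.41 with the other 8. The 12 points share libraries and differ in depth, so these values describe likeness only.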

How the data were processed

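The authors deposited one raw matrix of UMI counts for 32285 genes and 10474594 barcodes, made with Cell Ranger (6.0 in the submitters' processing notes, 6.0.1 in the matrix header) on mm10, with no cells called. Cells were called per library by the 2 steps Cell Ranger uses, a cutoff at 10% of the 99th percentile of the top 3000 barcodes and a test against the ambient profile of ranks 45000 to 90000 (10000 simulations, adjusted p at most 0.01, at least 500 UMIs). Cells with fewer than 200 genes or over 25% mitochondrial counts were left out (515 and 12634, some with both). Gates took at least 3 markers of a class, and the tubule-marker share was limited to 50% of the proximal tubule median. No doublet caller was run. The 217 cells that passed gates of 2 compartments were left out, as were 6 tied cells and 184 over the tubule limit, and 12714 passed no gate. UMIs were summed per class and library, and no test was made, since no label ties a library to a sample or condition and libraries were not treated as replicates. Ratios are given within each library instead. UMIs in kept cells ranged from 51068375 to 94845960 per library. Scripts used Python 3.11.15, numpy 2.4.6 and scipy 1.17.1, and the ratio rule was tested on simulated data. The members and lists were chosen with earlier results of these data known. From the fixed list, up to 4 genes per role and direction, and 3 most-like genes per member, were named. Results for some of these genes are not reported here. Intervals and floors (3 UMIs) cover counting error only.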

Additional observations from a re-analysis of the deposited data

Results flagged for a closer look

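Gated leukocytes above the 25% mitochondrial limit, 161 cells outside every comparison, also held these transcripts above the floor of 3 UMIs. They had 146 CPM of Selplg, 95.2 of Itgb2, 57.1 of Itga4, 52.9 of Itgal, 48.7 of Itgam and 69.8 of Icam1. Selp had 0 UMIs there, which allowed up to 6.35 CPM.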

How the results depend on the processing

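Values were recomputed under 17 settings, of which the 2 that leave out endothelial cells, by Selp or by podocyte transcripts, were chosen after seeing the data. Of 570 ratios, 538 kept their direction and call, 10 became called, 1 lost its call and 21 turned direction, while 42 more gave no value because a group held 0 UMIs there or in the reported values. The 5 genes higher in leukocytes than endothelium and the 1 lower were counted so in each. With no limit on tubule transcripts, 0 genes were higher in neutrophils than mononuclear phagocytes, 1 was higher in T and NK than myeloid cells, and 2 spanned libraries in endothelium. With the mean of per-cell CPM, 2 genes were higher in T and NK cells and 2 spanned libraries in endothelium, as did 2 after thinning to 1000 UMIs. Without 1 library in turn, the genes higher in T and NK cells numbered 0 to 2 (1 without library 3, 2 without library 5), those higher in classical monocytes than macrophages 1 to 2 (2 without library 4), those spanning libraries in endothelium 0 to 1 (0 without library 1) and in neutrophils 2 to 4 (2 without library 3). With a gate of 4 markers, with cells of 2 compartments kept, or after thinning, 2 genes were higher in classical monocytes, and with 4 markers 2 spanned libraries in neutrophils. With no UMI minimum, 8 spanned libraries in endothelium and 7 in neutrophils. Both counts include genes with 0 UMIs in a library, for which no fold value exists. In endothelium these were Selp, Sele, Itgam and Itgb2, from 36, 13, 3 and 7 UMIs in all. In neutrophils they were Selp, Sele and Icam2, from 24, 3 and 5 UMIs. No share of all genes is given for the counts at these settings, so they are not set against a background.

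On the log2 scale, leaving out each library in turn gave for leukocytes against endothelium -3.69 to 1.96 for Selp and -1.01 to 0.34 for Icam1, both positive without library 1, where endothelium held 1 Selp UMI. For neutrophils against mononuclear phagocytes it gave -0.33 to 0.61 for Itgam, -0.51 to 0.64 for Itga4 and -0.66 to 0.04 for Itgb2, all positive without library 3. For classical monocytes against macrophages it gave -0.18 to 0.75 for Itgam, -0.42 to 0.09 for Icam1 and -0.35 to 1.16 for Icam2, each turning without library 3, and -0.38 to 0.13 for Itgb2, turning without library 2. Neutrophils against mononuclear phagocytes also gave, for Itgam, 0.10 with a 10% mitochondrial limit, 0.26 with 4 markers, 0.13 with a tighter tubule limit, 0.27 by per-cell means and 0.27 thinned, for Itga4 0.06 and 0.26 under the first pair of these, and for Itgb2 0.02 under each of the last pair. Itgb2 in classical monocytes against macrophages gave 0.35 by per-cell means and 0.18 thinned. Sele in T and NK against myeloid cells gave -0.42 thinned. The cause was not tested. The ratios within libraries pair the groups by library and stand as values. No paired test was run on them, because no label ties a library to a sample and libraries were not treated as replicates.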
